A study of Mus musculus with 18 samples.

Results

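The mRNAs of motor proteins, tubulins and the spectrin and ankyrin membrane skeleton were examined in the mouse hippocampus for ac4C (N4-acetylcytidine), a cytidine that carries an acetyl group. The members were all genes with at least 1 ac4C peak in any mouse whose symbol names a kinesin (Kif), a cytoplasmic or axonemal dynein subunit (Dync, Dnah), a myosin (Myo, Myh), a spectrin (Spta, Sptb), an ankyrin (Ank1, Ank2, Ank3), the plakins Macf1 and Dst, or a tubulin or gamma-tubulin complex protein (Tuba, Tubb, Tubg, Tubgcp). This gave 69 of 7598 ac4C mRNAs. The samples were hippocampi of 3 wild-type (WT) littermates and 3 5×FAD mice, all 6 months old, and the labels name no further treatment. 5×FAD mice carry transgenes with mutations of familial Alzheimer's disease, among them mutant human APP (Swedish, Florida and London mutations), driven by the neuronal Thy1 promoter, and develop amyloid deposits. Each mouse gave 1 table of peaks from acetylated RNA immunoprecipitation sequencing (acRIP-seq), in which RNA fragments captured with an anti-ac4C antibody are compared with the input of the same mouse. The fold enrichment of a peak is the deposited ratio of captured signal over input, and the value of an mRNA in a mouse was the sum over its peaks, or 0 where none was listed. A value of 0 therefore means that no peak passed the caller's threshold, not that the mark was absent, and a sum reflects both how many peaks were listed and how strong they were.

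Kinesins walk along microtubules, most of them toward the plus end, and cytoplasmic dynein carries cargo toward the minus end, so that in axons they serve outward and return transport. Myosins pull on actin filaments, in dendritic spines and growth cones among other places. Spectrins form a periodic lattice under the axonal membrane, and ankyrins tie that lattice to ion channels and adhesion molecules, above all at the axon initial segment and the nodes of Ranvier. Plakins such as Macf1 and Dst link actin to microtubules. ac4C is written by the acetyltransferase Nat10 and has been linked to mRNA stability and translation.

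The labelled tissue was checked against hippocampal neuron markers, of which 14 of 16 had a peak. Rbfox3, a nuclear protein of neurons, ranged from 35.5 to 86.4 in WT and from 90.4 to 160 in 5×FAD mice, while Camk2a and Neurod2 had no peak. The mice carried 7434 to 10234 peaks each on 4268 to 5133 mRNAs. 5×FAD mouse 3 stood apart, with a median fold enrichment of 13.1 over all peaks against 6.88 to 7.63 in the other 5 mice, and its lowest listed value was 4.06 against 2.03 to 2.29. Fold enrichments are compared as deposited unless values on one scale are named, for which each mouse was multiplied by 1 factor that brought the median of the mRNAs found in all 6 mice to a common level. The tables hold no read counts, so depth is unknown and the spread between the 3 mice of a genotype is the measure of error. In bulk tissue, fewer cells of a type and less RNA per cell cannot be told apart.

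The sequences below are the coding stretches on which several results turn. The first pair belongs to the exons whose enrichment was listed mainly in 5×FAD mice, Sptbn4 exon 18 and the coding part of the last Macf1 exon. The other 5 come from coding regions that were listed in all 6 mice. They were chosen after their values were seen. They are given as DNA on the mRNA strand, 5′ to 3′, from the mm10 genome with GENCODE exon numbers, and capitals mark the longest run of C with any pair of bases between one C and the next (CNNCNN and so on), the spacing that has been described around ac4C sites. For Macf1 a window of 150 bases is shown.
Sptbn4 exon 18 of 36, chr7:27397951-27398041, minus strand: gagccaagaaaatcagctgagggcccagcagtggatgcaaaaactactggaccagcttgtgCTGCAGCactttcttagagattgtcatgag
Macf1 exon 98 of 98, chr4:123350892-123351041, minus strand: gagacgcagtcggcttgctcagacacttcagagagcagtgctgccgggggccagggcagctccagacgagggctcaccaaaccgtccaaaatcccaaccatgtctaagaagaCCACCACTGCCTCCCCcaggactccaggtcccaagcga
Sptbn4 exon 5 of 36, chr7:27428184-27428275, minus strand: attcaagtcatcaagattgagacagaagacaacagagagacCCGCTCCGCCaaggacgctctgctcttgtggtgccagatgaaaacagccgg
Kif26b exon 11 of 15, chr1:178913689-178913851, plus strand: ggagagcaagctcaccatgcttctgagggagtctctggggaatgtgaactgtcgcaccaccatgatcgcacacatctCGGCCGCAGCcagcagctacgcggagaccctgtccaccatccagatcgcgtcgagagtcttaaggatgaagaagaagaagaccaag
Kif1b exon 33 of 49, chr4:149207849-149207967, minus strand: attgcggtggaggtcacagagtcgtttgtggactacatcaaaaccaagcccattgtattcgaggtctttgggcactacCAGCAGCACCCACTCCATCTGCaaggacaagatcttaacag
Myo9b exon 32 of 40, chr8:71355695-71355887, plus strand: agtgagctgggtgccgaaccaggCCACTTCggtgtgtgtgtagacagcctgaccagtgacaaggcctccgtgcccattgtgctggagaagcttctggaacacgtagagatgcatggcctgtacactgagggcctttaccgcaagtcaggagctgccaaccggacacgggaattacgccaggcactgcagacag
Dst exon 84 of 103, chr1:34275673-34275879, plus strand: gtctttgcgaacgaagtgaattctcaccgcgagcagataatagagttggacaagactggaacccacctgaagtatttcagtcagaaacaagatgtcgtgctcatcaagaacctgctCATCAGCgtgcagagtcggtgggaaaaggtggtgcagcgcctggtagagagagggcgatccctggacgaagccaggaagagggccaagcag
The capitals spanned 8 such C in Kif1b, 6 in Macf1, 4 in Sptbn4 exon 5 and Kif26b, and 3 in Sptbn4 exon 18, Myo9b and Dst. Among 3670 regions with the length of the Kif1b exon allowing for 20%, 3.52% held a run of 8 or more, whereas 72.2% of 2133 regions of like length held the 3 of Sptbn4 exon 18. Over all 293 member regions, 29.0% held a run of at least 6 on the mRNA strand and 33.8% on the opposite strand, against 37.1% and 32.9% of all 20038 regions. The median cytosine content was 26.8% in member regions and 28.4% in all regions.

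A peak was listed on 69 of 134 annotated protein-coding genes of these families (51.5%), against 32.3% of all 21896 protein-coding genes. No member peak had a deposited FDR under 5%. The members also have longer coding sequences than most ac4C mRNAs, as given below, and the part of length in this share was not tested. All 3 ankyrins and both plakins had a peak, as did 5 of 7 spectrins, 14 of 25 unconventional myosins, 18 of 38 kinesins, 11 of 18 tubulins, 7 of 14 Myh heavy chains and 4 of 7 cytoplasmic dynein subunits. Of the axonemal dynein heavy chains, which drive motile cilia, 3 of 15 had one. Kinesins of mitosis such as Kif11, Kif20b, Kif23 and Kif2c had no peak, and the same held for all 12 markers of dividing cells. No peak was listed for Kif5b, the widely expressed conventional kinesin heavy chain, although its neuronal relatives Kif5a and Kif5c had peaks, nor for Tubb2b or Tubb4b. In all 6 mice a peak was listed for 27 of 69 members (39.1%), against 2028 of 7598 ac4C mRNAs (26.7%), and in 1 mouse for 8 of 69 (11.6%), against 19.0%. Of the 293 merged member regions, 17 (5.80%) were listed in all 6 mice and 119 (40.6%) in 1 mouse, against 8.63% and 34.7% over all regions.

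**Figure D1:**
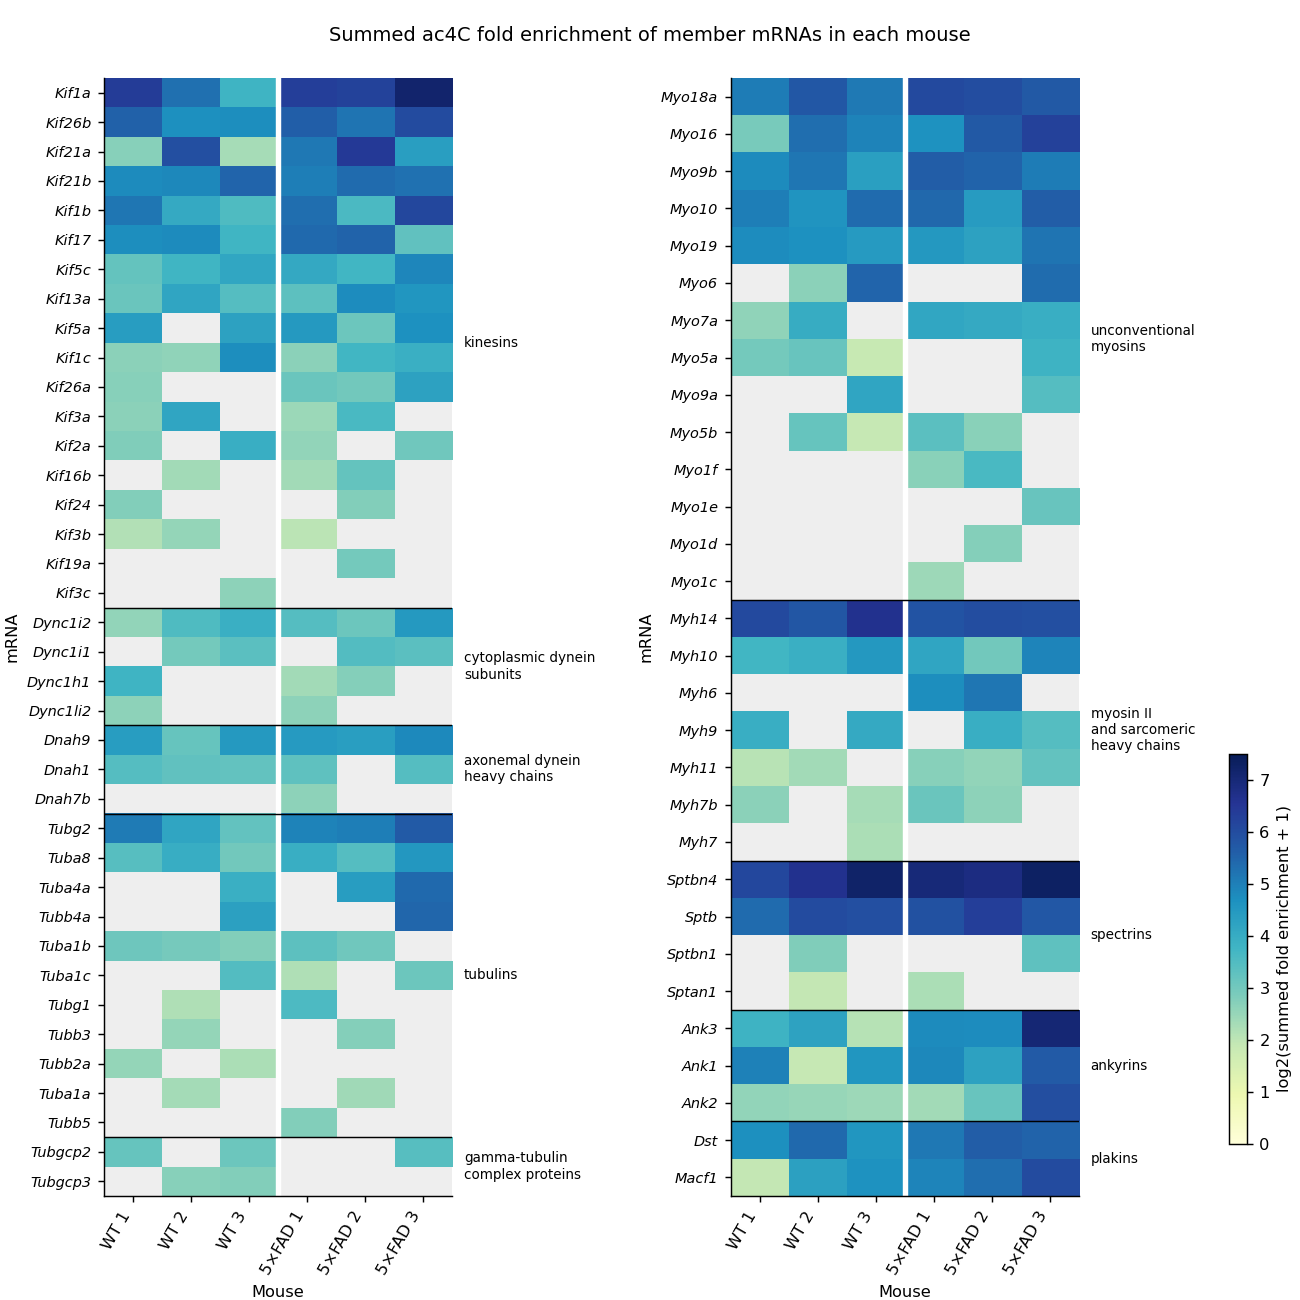
Summed ac4C fold enrichment of the 69 mRNAs, 1 of them not shown (rows, grouped by role) in each of the 6 mice (columns), as log2(summed fold enrichment + 1); grey marks a mouse with no listed peak. Sptbn4, Kif1a, Sptb and Myh14 are dark in nearly every mouse, while 17 of the 69 mRNAs, 5 of the 11 tubulins among them, have peaks in too few mice to count as reliable.

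Peaks of these mRNAs lay mostly within coding sequence. Coding exons without a start or stop codon held between 68.0% and 74.5% of a mouse's member peaks, against 48.6% to 53.2% of the peaks of all other mRNAs. The share was higher in members in 6 of 6 mice, by 20.5 points on average (two-sided exact permutation test flipping signs over the 6 mice, p = 0.0312, the smallest this test can give, adjusted p = 0.0391 over 5 classes). Start codon exons held less, 9.98% ± 2.98 against 20.2% ± 2.60 (SD, n = 6, exact permutation adjusted p = 0.0391), as did stop codon exons, 11.7% ± 2.28 against 18.4% ± 1.36 (exact permutation adjusted p = 0.0391). The 5′ UTR held 4.87% ± 1.05 against 8.24% ± 0.910 (n = 6, exact permutation adjusted p = 0.0391), and the 3′ UTR share did not pass the test (exact permutation adjusted p = 0.531). These tests cover mice and not genes. The members had a median coding length of 5016 bases and 35 exons, against 1671 bases and 11 exons over the 7197 ac4C mRNAs with an annotated length, and the part of length in the shares was not tested. Per kilobase of coding sequence the members had 0.314 peaks in a mouse on average, against 0.537 over all ac4C mRNAs. The start of 629 of 688 member peaks (91.4%) coincided with an exon start, so the position of a peak is known only by its exon.

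**Figure D2:**
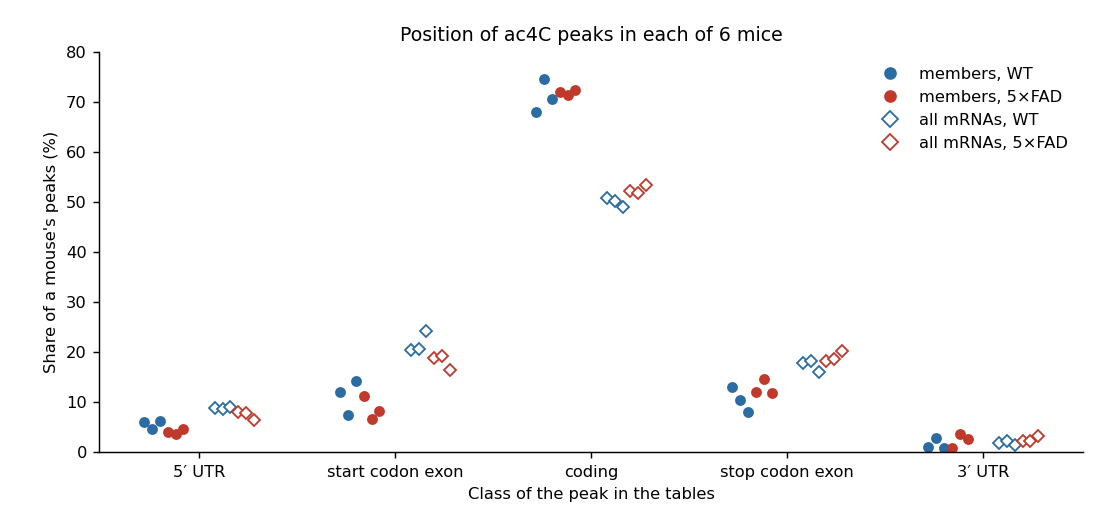
Share of a mouse's peaks (%) in each position class of the tables, for the 69 mRNAs (filled circles) and all ac4C mRNAs (open diamonds), 1 point per mouse, WT blue and 5×FAD red. The coding share of the members, 68.0% to 74.5%, lies above that of all mRNAs in every mouse.

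Spectrins held the highest value of the whole group. Sptbn4, the beta-IV spectrin of axon initial segments and nodes of Ranvier, stood at 68.3, 99.2 and 148 in the WT mice against 126, 114 and 158 in the 5×FAD mice. WT mouse 3 lay within the 5×FAD range, so the genotypes overlapped. Its enrichment was spread over 16 regions, of which only exon 5 was listed in all 6 mice, at 10.8, 8.86 and 8.15 in WT against 13.9, 14.8 and 16.7 in 5×FAD. The genotypes did not overlap at that exon as deposited but did on one scale, where the log2 fold change was 0.09 in place of 0.66. Exon 18 of 36 had the highest mean of the Sptbn4 regions over the 6 mice, with no peak in WT mice 1 and 2, 30.8 in WT mouse 3 and 49.3, 42.4 and 50.8 in the 5×FAD mice. The largest single peak of Sptbn4 lay elsewhere, in a 5′ UTR region listed at 55.3 in WT mouse 2 alone. Exon 7 held 0, 5.87 and 7.44 in WT against 13.3, 15.3 and 22.9 in 5×FAD mice, without overlap on either scale.

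Sptb, the beta-I spectrin known from red cells and also made in neurons, stood at 40.6, 64.3 and 60.4 in WT against 58.6, 78.3 and 52.8 in 5×FAD. It held 2 regions in all 6 mice, the 5′ UTR exon (11.9 to 14.5 in WT, 10.4 to 25.2 in 5×FAD) and the start codon exon (6.42 to 6.63 and 6.14 to 9.72). Of 9 red cell markers only Alas2 had a peak, 5.57 in WT mouse 3, and the globin genes on the list were at 0 in every mouse. The spectrins that are most widely made were thinly listed. Sptan1, the alpha-II partner of the beta spectrins, had 2.80 in WT mouse 2 and 3.76 in 5×FAD mouse 1 and no peak in the other 4 mice. Sptbn1 (beta-II) had 5.90 in WT mouse 2 and 8.83 in 5×FAD mouse 3.

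Ankyrins were listed in all 6 mice without exception. Ank3, ankyrin-G, the organiser of the axon initial segment, stood at 13.2, 17.8 and 3.29 in WT against 26.7, 25.9 and 131 in 5×FAD mice. The genotypes did not overlap, and 5×FAD mouse 3 was far above the rest. The number of Ank3 peaks was 2, 4 and 1 in WT against 4, 4 and 11 in 5×FAD mice, over 15 regions, none of them in all 6 mice. Exons 34 and 40 of 45 were the regions listed in most mice, both in WT mouse 1 and in the 3 5×FAD mice. Ank2, ankyrin-B, was flat in 5 mice, at 4.12 to 7.87, and stood at 61.1 in 5×FAD mouse 3. Its exon 40 of 46 was listed in all 6 mice, at 4.12 to 8.31. Ank1, ankyrin-R, stood at 30.3, 2.74 and 22.4 in WT against 27.8, 18.1 and 51.0 in 5×FAD mice.

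Plakins were likewise found in every mouse. Macf1 stood at 2.77, 18.7 and 24.1 in WT against 28.9, 38.5 and 63.6 in 5×FAD, with no overlap. Its last exon, exon 98 of 98, which holds the stop codon and the 3′ UTR (chr4:123349692-123351145, minus strand), was listed in no WT mouse and at 11.5, 11.9 and 48.8 in the 5×FAD mice. The 8 other Macf1 regions held no more than 17.1 in any mouse. Dst, dystonin, had 25.2, 41.2 and 22.5 in WT against 34.2, 48.6 and 45.03 in 5×FAD mice. Exon 84 of 103 of Dst was among the steadiest regions, at 11.3, 9.76 and 10.7 in WT against 13.2, 11.8 and 14.2 in 5×FAD mice.

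**Figure D3:**
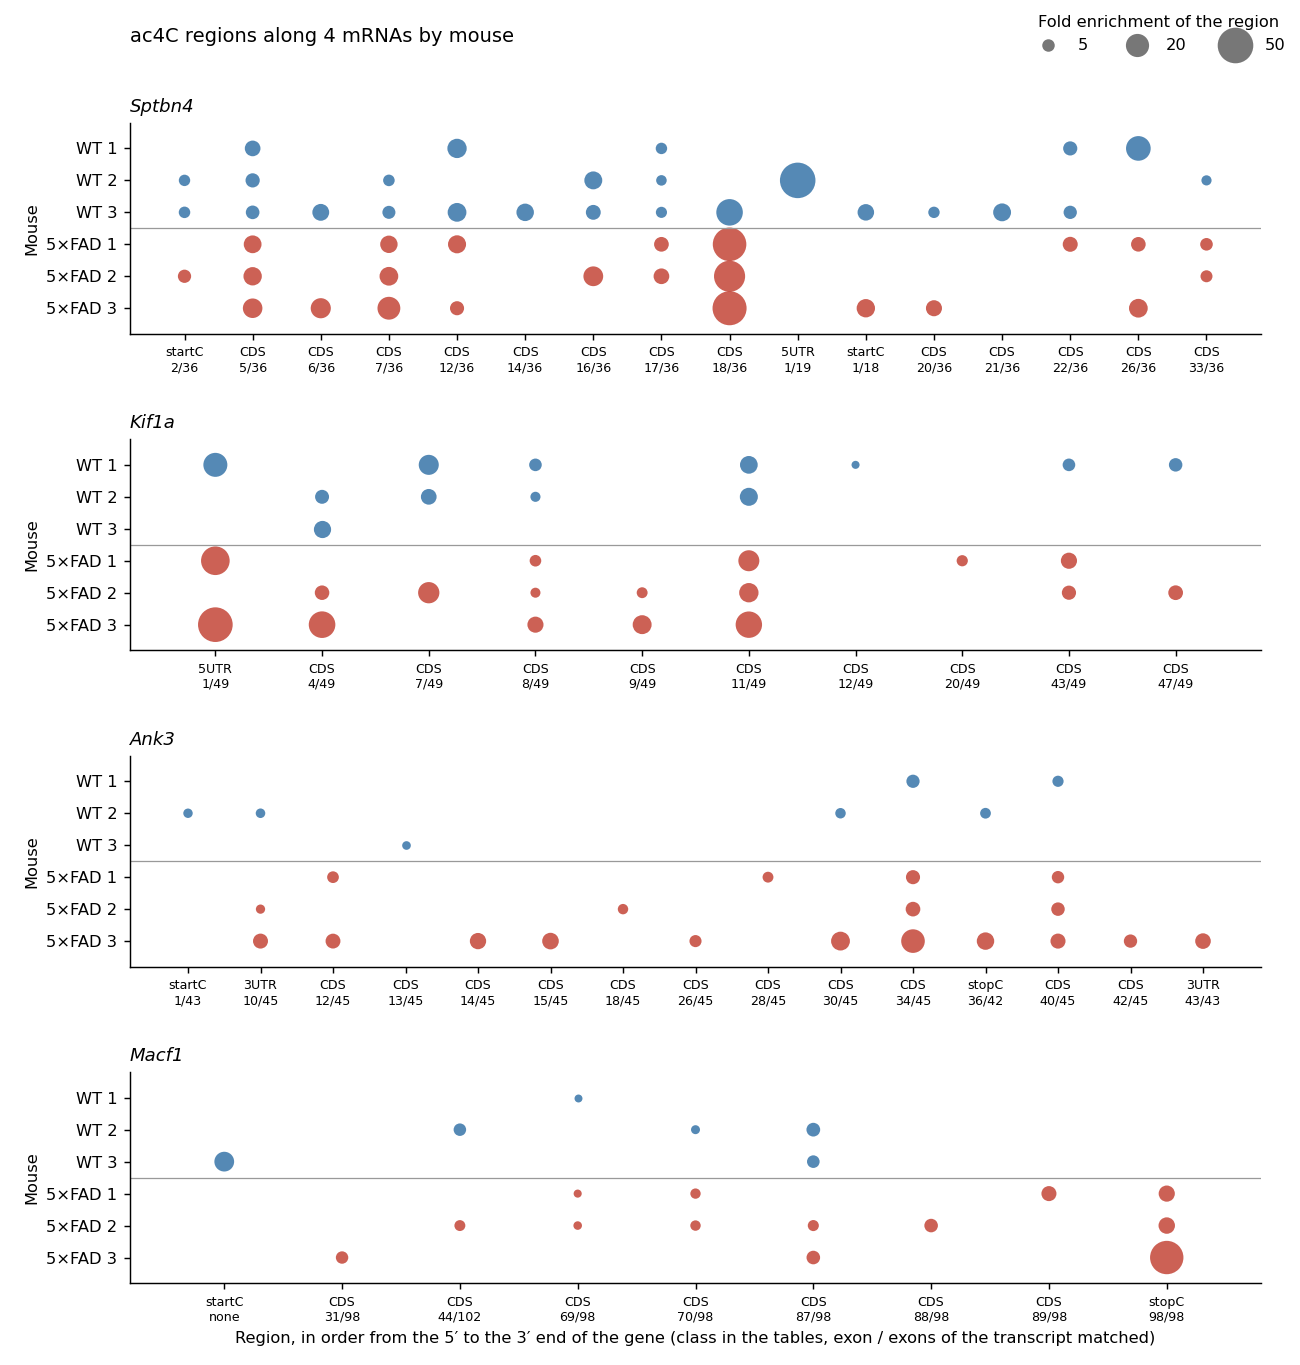
ac4C regions of Sptbn4, Kif1a, Ank3 and Macf1 in order from the 5′ to the 3′ end of the gene (x axis, labelled with the class in the tables and the exon over the exons of the matched transcript), by mouse (y axis); the area of a circle is the fold enrichment of the region. Sptbn4 exon 18 is large in WT mouse 3 and all 3 5×FAD mice, the last Macf1 exon is present in the 3 5×FAD mice alone, and Ank3 in 5×FAD mouse 3 has 11 regions.

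Kif1a, the kinesin with the highest mean and a motor that moves synaptic vesicle precursors and dense core vesicles, stood at 81.4, 38.1 and 12.99 in WT against 78.1, 73.5 and 141 in 5×FAD. WT mouse 1 lay within the 5×FAD range. The 5′ UTR exon of Kif1a was listed at 25.2 in WT mouse 1 and at 35.9 and 52.6 in 5×FAD mice 1 and 3. Kif1b, a close relative, stood at 34.9, 15.5 and 10.7 in WT against 39.0, 10.95 and 68.4 in 5×FAD. Its exon 33 of 49, printed above, was listed in all 6 mice (12.2, 15.5 and 10.7 in WT, 12.8, 10.95 and 33.6 in 5×FAD) and made up the whole Kif1b signal of WT mice 2 and 3 and of 5×FAD mouse 2. Kif5c and Kif5a, neuronal conventional kinesin heavy chains, held 8.18 to 16.7 and 0 to 19.9 in WT and 12.2 to 28.4 and 7.49 to 24.5 in 5×FAD. Kif3a and Kif3b, partners in the kinesin that builds cilia, were at most 17.2 in any mouse.

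Other kinesins differed widely between mice of 1 genotype. Kif26b, an atypical kinesin without known motor activity, stood at 46.0, 25.1 and 25.4 in WT against 47.9, 35.4 and 63.5 in 5×FAD, and its exon 11 of 15 was the most enriched coding region among those in all 6 mice (14.8 to 18.7 in WT, 20.2 to 28.8 in 5×FAD). Kif26a, its paralog, had 5.55 in WT mouse 1 only and 7.78, 7.04 and 18.01 in the 5×FAD mice. Kif21a, which slows microtubule growth, stood at 5.58, 59.8 and 3.97 in WT against 34.7, 86.0 and 19.4 in 5×FAD, with the start codon exon listed at 47.9 in WT mouse 2 and 54.7 in 5×FAD mouse 2 and in no other mouse. Kif21b was even, at 26.6, 27.8 and 44.1 in WT against 31.4, 40.4 and 37.1 in 5×FAD.

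Dynein mRNAs were weakly listed. Dync1h1, the heavy chain of cytoplasmic dynein, had 12.9 in WT mouse 1 and 4.15 and 5.62 in 5×FAD mice 1 and 2. Dync1i2, an intermediate chain, was found in all 6 mice, at 4.94, 10.51 and 14.04 in WT against 9.90, 7.49 and 20.96 in 5×FAD. Dync1i1, its neuronal relative, was missing in both mice with the number 1 and stood at 6.86 to 10.1 in the others, and Dync1li2 was listed in just those, at 5.14 and 5.11. Among axonemal chains, Dnah9 stood at 19.8, 8.02 and 21.1 in WT against 20.9, 19.4 and 27.3 in 5×FAD and Dnah1 at 8.48 to 9.92 in WT and 8.75, 0 and 9.92 in 5×FAD. Dnah7b was listed once, at 5.10 in 5×FAD mouse 1. Ependyma and motile cilia markers had a peak for 6 of 20 genes, with a summed level of 16.7 to 52.6 in WT and 20.3 to 78.3 in 5×FAD mice. Ttr, which the choroid plexus makes, gave 6.92 to 42.3 of it in WT and 0 to 62.1 in 5×FAD, and markers such as Rsph1, Ccdc153 and Tmem212 were at 0. The part of such cells in the axonemal values was not tested.

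Among myosins, Myh14, a heavy chain of non-muscle myosin II, was the highest, at 66.4, 54.1 and 98.6 in WT against 56.4, 63.1 and 59.7 in 5×FAD mice. The 5×FAD mice lay within the WT range. It held 18 regions, more than any other member, of which exon 8 of 41 was found in all 6 mice at 5.34 to 12.8. Myh10 stood at 12.2, 14.1 and 21.7 in WT against 17.0, 7.02 and 29.3 in 5×FAD, and Myh9 at 0 to 15.6 and 0 to 14.4. Myh6, the atrial cardiac heavy chain, had 25.6 and 35.3 in 5×FAD mice 1 and 2 and no peak in the other 4 mice. That signal was a single region of 81 bp at the last exon, where the annotated gene Gm49130 overlaps, so the reads cannot be assigned to Myh6 alone. Myh11, the smooth muscle heavy chain, had 3.19, 4.11 and 0 in WT against 5.59, 4.93 and 8.35 in 5×FAD, without overlap. Each value was 1 peak, at exon 23 in the mice numbered 1, at the last exon in the mice numbered 2 and at exon 27 in 5×FAD mouse 3. Vessel and smooth muscle markers had a peak for 5 of 10 genes, summing to 42.8 to 81.4 in WT and 76.8 to 154 in 5×FAD, and Tagln and Cnn1 were at 0. Their part in the Myh11 values was not tested.

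Unconventional myosins were led by Myo18a, which has little motor activity of its own, at 32.6, 52.8 and 33.7 in WT against 67.0, 62.5 and 52.2 in 5×FAD. The 5′ UTR exon of Myo18a had the highest mean of the regions listed in all 6 mice (18.5 to 24.4 in WT, 24.1 to 52.2 in 5×FAD). Myo16 stood at 6.55, 39.0 and 29.9 in WT against 23.8, 51.5 and 75.05 in 5×FAD. Myo9b had 26.6, 35.2 and 18.9 in WT against 48.8, 44.7 and 32.1 in 5×FAD. Its exon 32 of 40 was among the steadiest regions, at 11.2 to 12.9 in WT and 11.1 to 14.1 in 5×FAD. Myo10, a motor of filopodia, ranged from 22.8 to 40.1 in WT and from 20.2 to 48.7 in 5×FAD. Myo5a, which brings endoplasmic reticulum into dendritic spines, had 6.86, 7.92 and 2.60 in WT and a peak in 5×FAD mouse 3 alone, at 13.2. Myo6, which walks toward the minus end of actin, was listed at 43.7 in WT mouse 3, 39.96 in 5×FAD mouse 3 and 5.22 in WT mouse 2.

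Tubulins were mostly weak or rare, although the proteins are among the most abundant of neurons. Tubg2, a gamma-tubulin of the microtubule nucleating complex, was the highest, at 32.9, 17.2 and 8.51 in WT against 29.8, 31.8 and 50.9 in 5×FAD. Its last exon was listed in all 6 mice, at 14.7, 13.2 and 8.51 in WT against 14.6, 18.4 and 32.6 in 5×FAD. Tuba8 was found in all 6 mice, at 9.58, 14.8 and 7.06 in WT against 14.3, 9.85 and 22.2 in 5×FAD, each time in exon 4 of 5. Tuba4a had 14.1 in WT mouse 3 and 19.8 and 41.3 in 5×FAD mice 2 and 3, at a last exon that the gene Stk16 overlaps. Tubb4a, a beta-tubulin rich in myelinating cells, had 18.5 in WT mouse 3 and 43.4 in 5×FAD mouse 3 only. The neuronal Tubb3 and Tuba1a were each listed only in the mice numbered 2, at 4.75 and 5.64 and at 4.02 and 4.22. Tubgcp2 and Tubgcp3, subunits of the nucleating complex, had at most 9.65 in any mouse. Tubulin genes have near-identical coding sequences, and the placing of reads that match several of them was not given in the sources used here, so values of single isotypes are uncertain.

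The comparison of genotypes asked how acetylation of these mRNAs differs in 5×FAD hippocampus. WT mice had 100, 106 and 112 member peaks on 44, 44 and 46 members, and 5×FAD mice 125, 136 and 109 peaks on 50, 48 and 44 members. Neither count passed the test (two-sided exact permutation p = 0.2 and 0.4, n = 3 each, adjusted p = 0.533 over 4 measures), and 3 against 3 mice cannot give a p below 0.1. By the study's classes, 38 of the 69 members were overlay mRNAs (a peak in at least 2 of 3 mice of both genotypes). Another 8 were AD unique (at least 2 of 3 mice in 5×FAD only), 6 were AD absent (at least 2 of 3 in WT only) and 17 were reliable in neither. The shares were 55.1%, 11.6%, 8.70% and 24.6%, against 50.7%, 13.3%, 7.71% and 28.3% over all ac4C mRNAs. In the unique and absent classes, 1 mouse of the other genotype could still have a peak. The AD unique Dync1h1 had 12.9 in WT mouse 1, and the AD absent Myo6 had 39.96 in 5×FAD mouse 3. The AD unique members included Dync1h1, Kif16b, Kif26a, Myh6, Myo1f, Tuba1c and Tuba4a, and the AD absent ones Kif3b, Myo5a, Myo6, Tubb2a, Tubgcp2 and Tubgcp3. No member was found in all 3 mice of one genotype and none of the other. With WT mouse 1, 2 or 3 left out, 13 to 15 members were AD unique and 2 or 3 AD absent. With 5×FAD mouse 1 or 2 left out 2 were AD unique and 12 AD absent, and with 5×FAD mouse 3 left out 6 and 10. A peak was still required in at least 2 mice, so both remaining mice of the reduced genotype had to have one. That rule alone moves the counts in these directions. Shares over all ac4C mRNAs are not given for these settings, so the counts are not a result about the members.

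A fold change of at least 2 in the means plus 1 was reached by 6 AD unique members, of 52 reliable ones, where 15.0% of all 5444 reliable mRNAs were of this kind. They included Kif16b, Kif26a, Myh6, Myo1f and Tuba4a. The count was 2 without 5×FAD mouse 1 and 1 without 5×FAD mouse 2, where both remaining 5×FAD mice had to have a peak, so the class could only shrink. Among AD absent members 2 reached it, Tubb2a (4.75 and 3.69 in WT mice 1 and 3) and Tubgcp3 (5.56 and 5.84 in WT mice 2 and 3), where the share over all reliable mRNAs was 3.97%. The AD absent count was 6 without 5×FAD mouse 3, where by the same rule the class could only grow. It was 1 without WT mouse 1 or 3, where the class could only shrink. Shares over all reliable mRNAs are not given for mice left out, so these counts are not a result about the members. Myo1f, a myosin of microglia and other myeloid cells, had 5.44 and 11.3 in 5×FAD mice 1 and 2 and no other peak. Markers of these cells had a peak for 12 of 16 genes, summing to 24.9 to 54.7 in WT and 203 to 246 in 5×FAD, while Trem2, Tyrobp, Ptprc and C1qc were at 0 in every mouse. The part of such cells in the Myo1f values was not tested.

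The test on summed values called no mRNA. In limma on log2(summed fold enrichment + 1), 0 of 38 overlay members passed an adjusted p of 0.05 (0.0% of all 3851 overlay mRNAs were called), and 0 of 52 reliable members did (0.0% of 5444). At an unadjusted p under 0.05 stood 0 overlay members and 1 reliable member, Kif26a, higher in 5×FAD, where the share of all reliable mRNAs at such a p and higher was 5.03%. With the mouse number as a block, 2 overlay members (Macf1 and Kif21a, where the share of all overlay mRNAs was 4.62%) and 3 reliable members (Macf1, Kif21a and Kif26a, against 5.88%) stood at such a p, all higher in 5×FAD, and none passed after adjustment. Of the 52 reliable members, 39 were higher and 13 lower in 5×FAD, with a median log2 fold change of 0.51 against 0.54 over all reliable mRNAs, and the share of higher ones was 75.0% in both. On one scale 25 members were higher and 27 lower, with a median of -0.04 against 0.02. Within the pairs of mice with the same number the member median was 0.24, 0.31 and 0.34, against 0.26, 0.27 and 0.76 over all reliable mRNAs. On one scale it was 0.0, 0.0 and -0.30, against 0.0 in each pair over all, and in the third pair 32.7% of members were higher, against 42.5%.

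**Figure D4:**
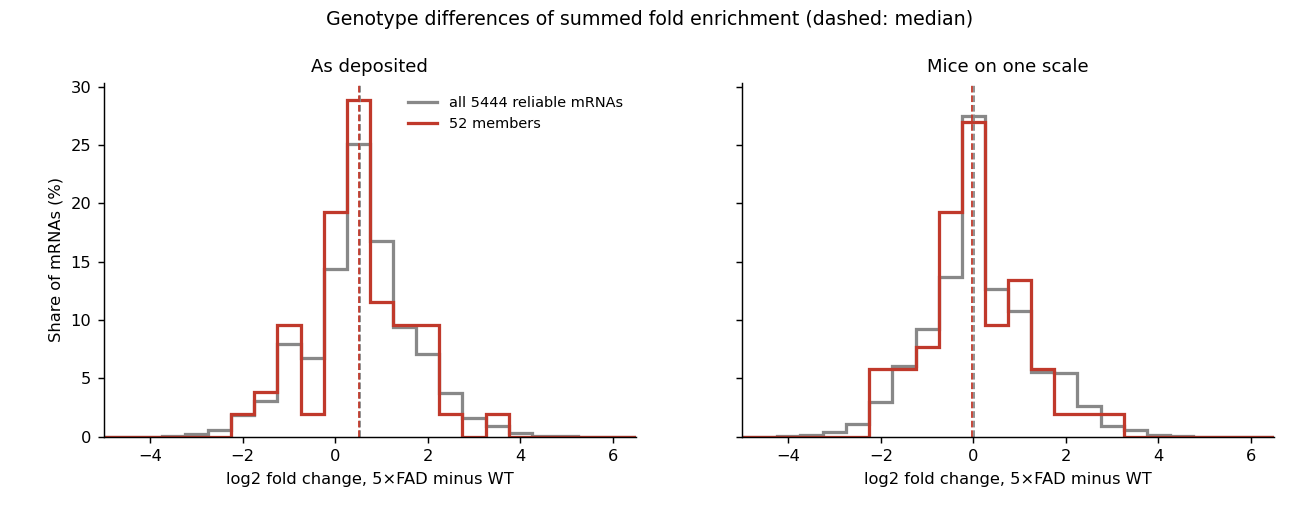
Distribution of the log2 fold change (5×FAD minus WT, log2(summed fold enrichment + 1) scale) as a share of mRNAs (%), for the 52 reliable members (red) and all 5444 reliable mRNAs (grey), as deposited (left) and with mice on one scale (right); dashed lines are medians. The member medians, 0.51 and -0.04, lie beside those of all mRNAs, 0.54 and 0.02.

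Genotypes did not overlap for 4 of 52 reliable members, all higher in 5×FAD, where 14.6% of all reliable mRNAs were higher without overlap, and for no member in the lower direction, where the share was 0.771%. These were Ank3 (log2 fold change 2.14 ± 0.93, SE), Macf1 (1.79 ± 0.88), Kif26a (2.56 ± 0.92) and Myh11 (1.36 ± 0.78). The sizes for Kif26a and Myh11 depend on the 1 added before the log, since some of their WT values are 0. By limma, Ank3, Macf1 and Kif26a had an adjusted p of 0.582 and Myh11 of 0.655. On one scale Ank3 and Kif26a were still without overlap, Macf1 and Myh11 overlapped, and Myh14, Myo19, Dnah1 and Tuba1b were lower in every 5×FAD mouse than in every WT mouse, 2 higher and 4 lower of 52 where 4.94% of all reliable mRNAs were higher and 3.62% lower without overlap on that scale. Without 5×FAD mouse 3 the log2 fold change of Ank3 was 1.38, without WT mouse 1 that of Macf1 was 0.93, and without WT mouse 3 that of Myh11 was 0.63. Without 5×FAD mouse 3, whose own values for them are 0, Myh6 (adjusted p = 0.0283) and Myo1f (adjusted p = 0.0308) passed the limma test, as they did under no other alternative. Neither had a WT peak, and both entered the test through 5×FAD mice 1 and 2 alone. Their passes are therefore not support for a difference. With any 1 mouse left out, 6 to 11 members were higher without overlap and 0 to 2 lower, and the number of mice compared is then smaller. The shares over all reliable mRNAs are not given for these settings, so these counts are not a result about the members.

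**Figure D5:**
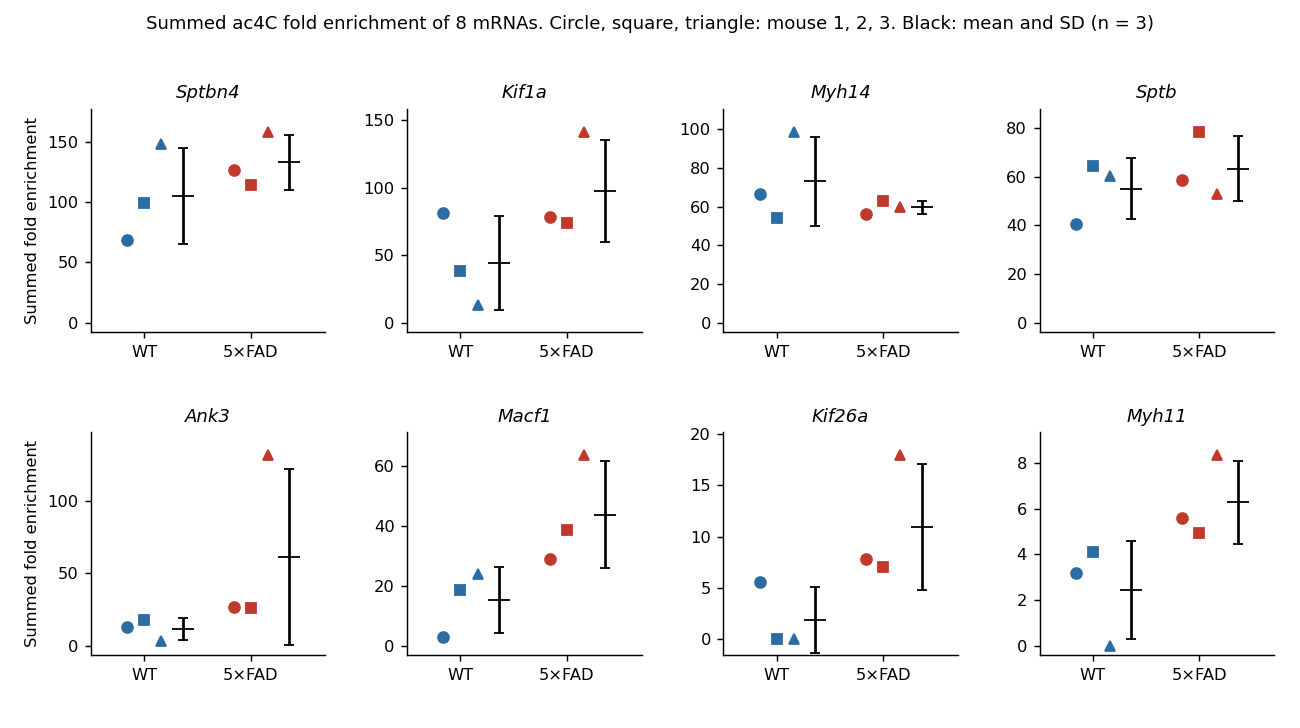
Summed fold enrichment (y axis) in WT and 5×FAD mice for Sptbn4, Kif1a, Myh14 and Sptb, which are high in both genotypes, and for Ank3, Macf1, Kif26a and Myh11, whose genotypes do not overlap; symbols mark the mouse number and black bars the mean ± SD (n = 3). 5×FAD mouse 3 (triangle) is the highest value in each panel of the second row, 131 for Ank3.

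Single regions were tested too, since they do not grow with the number of peaks. In limma 0 of 126 member regions passed (0.0% of all 10027 regions), and 6 were higher in 5×FAD at an unadjusted p under 0.05, a share of 4.57% over all regions (5 and 4.08% with the mouse number as a block). These were the last exons of Macf1 and Kif26a, Sptbn4 exon 18, Kif26b exon 3 and Ank3 exons 34 and 40. The last Macf1 exon had the smallest adjusted p of the member regions, 0.0862, and is given no fold because the WT mice are listed at 0. It passed on one scale (adjusted p = 0.0448), with a pseudocount of 0.1 (0.0122), with a peak required in 3 of 3 mice (0.0061) and without 5×FAD mouse 3 (0.0059). With the mouse number as a block its adjusted p was 0.143, the highest of all alternatives. The exon entered the test through its 5×FAD peaks alone, and its WT values of 0 have no spread. Its passes under the alternatives are therefore not separate support for a difference. Sptbn4 exon 18 differed by 3.93 ± 1.43 (log2, SE; limma adjusted p = 0.482), a size that depends on the pseudocount because WT mice 1 and 2 are listed at 0. Of the 126 member regions 85 were higher and 41 lower (median 0.39, against 0.44 over all regions), and on one scale 55 were higher and 71 lower. Without 5×FAD mouse 3, 11 member regions passed among 830 of all regions, 10 higher and 1 lower. The numbers of regions tested in this setting are not given, so the count is not a result about the members. The 10 higher ones, none with a peak in a WT mouse, included regions of Myh6, Kif21a, Myo1f, Myo5b, Kif16b, Kif17, Macf1, Myo16 and Myo9b, and the lower one was exon 24 of 41 of Myo5a. Except for the Macf1 exon, the higher regions had no peak in 5×FAD mouse 3, the mouse left out, and the Myo5a exon was listed there at 4.55. The higher regions entered the test through 5×FAD peaks alone, so their passes are not support for a difference.

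Mice with the same replicate number shared peaks across genotypes. Of 48 member regions listed in 1 WT and 1 5×FAD mouse, 36 (75.0%) were listed in mice of the same number, and 2285 of 3063 regions of all genes (74.6%). Tubb4a, Tubb3, Tuba1a, the Kif21a start codon exon and Dync1li2 gave examples above. At the level of mRNAs the count was 5 of 9 for members and 463 of 709 (65.3%) for all genes. The labels give the number only, and what the mice of one number share is not stated.

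Partners of these proteins from lists of pathway genes were read from the same limma fit, and none passed at an adjusted p of 0.05. Over all reliable mRNAs, 75.0% were higher in 5×FAD as deposited and 51.5% on one scale, and the list counts were not tested against these shares. Of the kinesin light chains and cargo adaptors 21 of 25 had a peak and 19 were tested, 16 higher and 3 lower in 5×FAD (8 and 11 on one scale). Kidins220, a scaffold carried by kinesin, had no peak in WT and 3.85, 4.34 and 9.46 in 5×FAD (adjusted p = 0.137), and Ppfia1, a liprin of the presynaptic active zone, had 27.8, 38.5 and 29.3 in WT against 4.80, 16.8 and 12.02 in 5×FAD without overlap on either scale (adjusted p = 0.582). Of the membrane skeleton partners 20 of 29 had a peak and 13 were tested, 10 higher and 3 lower (7 and 6 on one scale). Nfasc, the neurofascin that ankyrin-G holds at initial segments and nodes, stood at 94.2, 119 and 54.9 in WT against 171, 150.1 and 160.0 in 5×FAD (adjusted p = 0.691), without overlap as deposited and with overlap on one scale. Cntnap1, which lines the paranode, had 4.72 in WT mouse 1 alone and 22.1, 6.59 and 8.75 in 5×FAD (adjusted p = 0.582), and Scn8a, the sodium channel of nodes, 18.5 to 26.7 in WT and 28.3, 40.4 and 103 in 5×FAD (adjusted p = 0.712).

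Among other plakins and microtubule plus end proteins 12 of 18 were tested, 10 higher and 2 lower (7 and 5 on one scale). Evpl, envoplakin, had 6.39, 3.80 and 11.6 in WT and no peak in any 5×FAD mouse (adjusted p = 0.123). Dsp, desmoplakin, had 30.6, 8.39 and 10.1 in WT against 67.9, 26.6 and 80.6 in 5×FAD, and Clip3 11.2 to 12.6 and 19.4 to 77.9 (adjusted p = 0.582 each). Myosin light chains, kinases and partners counted 13 tested of 24, 10 higher and 3 lower (9 and 4 on one scale), with Ppp1r12b, a subunit of myosin phosphatase, at 5.18 in WT mouse 2 alone and 8.34, 16.8 and 23.7 in 5×FAD (adjusted p = 0.512). Dynactin and dynein regulators were rarely listed, with a peak for 11 of 29 and 7 tested, 3 higher and 4 lower (3 and 4 on one scale). Tubulin folding, modification and severing proteins gave 17 tested of 35, 10 higher and 7 lower (8 and 9 on one scale), Tbcel being the one with the smallest p (adjusted p = 0.582).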

How the data were processed

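RNA of 6 hippocampi was fragmented, and an anti-ac4C, an input and an IgG library were made from each mouse (18 libraries). As the labels and methods state, the authors trimmed reads with cutadapt 1.9.3, aligned them to mm10 with HISAT2 2.04 and called peaks in each mouse with MACS against its own input, kept exons of protein-coding genes and dropped peaks that overlapped IgG peaks. The deposited fold enrichment is a ratio to input, and it could not be settled whether IgG signal had been subtracted. The deposited score, 10 times the negative log10 of the caller's own value for each peak, was at least 40 throughout. The deposited FDR, in percent, was not used as a filter: no member peak was under 5%, and 92 of 109 member peaks of 5×FAD mouse 3 were listed at 100%, whereas the methods state an adjusted p under 0.05. RNA-seq data were not used here.

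Summed fold enrichment per mRNA and the highest peak per merged region (overlap of at least 1 bp on 1 strand) were compared between genotypes on log2(value + 1) by limma 3.58.1 (R 4.3.3), with Benjamini-Hochberg adjustment over the whole table. A fold change on this scale understates changes of low values. Reliable means a peak in at least 2 of 3 mice of a genotype. Regions were placed on exons with GENCODE and matched to the mm10 genome. Tests used Python 3.11.15 and limma, and limma was tested on simulated data. The p-values measure the spread between these mice.

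Same-numbered mice deviated together over 5444 reliable mRNAs (r = 0.527, 0.473 and 0.290 for numbers 1, 2 and 3), so the numbers were read as pairing the samples. Other pairs gave -0.335 to -0.119. Deviations were taken from each genotype's own mean, so other pairs must be negative on balance once same-numbered ones are positive. The main fits and the exact tests between genotypes did not use the pairing. It entered only in the block and in the differences within pairs. The pairing comes from the data, since the labels give the number only.

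Alternatives were a pseudocount of 0.1, one scale, the highest peak per mRNA, a fold enrichment of at least 4, a score of at least 50, equal numbers of top peaks (7434), 3 of 3 mice, an overlap of 100 bp, the block and leaving out each mouse. The members, lists and tests were chosen with earlier results of these data known. Members named were the up to 4 with the highest mean in each role group, those without overlap, a fixed list of well-known genes and the 8 regions with the highest mean in all 6 mice. Of list genes, up to 3 with the smallest p were taken. Members named beyond these, such as those listed by class, were chosen after their values were seen. A member and some sequences are not reported here.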

Additional observations from a re-analysis of the deposited data

How the results depend on the processing

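No member of the overlay fit passed under any alternative, and members of the reliable fit passed only without 5×FAD mouse 3 (0 to 2 over mice left out). With the replicate block, 0 member mRNAs and 0 member regions were called, as without it on values as deposited (limma gave the Macf1 mRNA an adjusted p of 0.473 with it and 0.582 without). On one scale without the block, 1 member region was called, the last Macf1 exon. The block together with one scale, added after seeing the data, called 0, so there the block removed that call. Over all genes, reliable mRNAs called numbered 109 with a pseudocount of 0.1, 10 on one scale, 83 with the highest peak, 108 with 3 of 3 mice, and 0 to 247 over mice left out. All regions called numbered 284 with a pseudocount of 0.1, 200 on one scale, 287 with 3 of 3 mice (added after seeing the data), and 0 to 830 over mice left out. Of member regions, 1 was called in each of these 3 settings and 0 to 11 over mice left out. The cause was not tested.

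The member median was -0.0366 on one scale, 0.43 with the highest peak, 0.42 at a score of at least 50, 0.22 with equal top peaks, 0.57 with 3 of 3 mice (added), and 0.40 to 0.59 over mice left out. Members without overlap were 2 higher and 4 lower on one scale (4.94% and 3.62% over all reliable mRNAs), 8 higher with the highest peak, 2 higher and 1 lower with equal top peaks, and 6 to 11 higher and 0 to 2 lower over mice left out, where fewer mice are compared. Except on one scale, shares over all reliable mRNAs are not given beside these counts or the class counts that follow. They are therefore not a result about the members. AD unique members numbered 5 and AD absent ones 10 with equal top peaks, 4 and 3 with 3 of 3 mice, and 2 to 15 and 2 to 12 over mice left out. With a mouse left out, both remaining mice of its genotype had to have a peak, so the class counts shift by that rule. Overlay members ranged from 31 to 34 over mice left out. With a fold change of at least 2, AD absent members numbered 6 on one scale, 1 at a fold enrichment of at least 4, 4 at a score of at least 50, 7 with equal top peaks and 0 with 3 of 3 mice. AD unique ones numbered 3 with equal top peaks and 3 with 3 of 3 mice, and over mice left out the ranges were 1 to 6 and 1 to 9. Ank3, Macf1, Kif26a, Myh11 and both regions of Macf1 and Sptbn4 followed here kept their direction under every alternative that gave a value. Myh11 gave none with equal top peaks. The tables give no depth, so precision rests on 3 mice per genotype.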
